A study of Mus musculus with 14 samples.

Results

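The locus described here was the gene Gapdh (ENSMUSG00000057666.20) and its chromosomal neighbourhood in cultured mouse muscle stem cells (MuSCs). The window was the canonical transcript of Gapdh (ENSMUST00000118875.8), a transcript of 7 exons on the minus strand at chr6:125138817-125142736 (GRCm39), extended by 100 kb on both sides to chr6:125038817-125242736. All consensus peaks overlapping this window by at least 1 bp were taken, 71 of the 175565 peaks listed for the series. They were 12 of 7339 pSMAD1/5/9 peaks after BMP6 and 4 of 949 in control cells, 13 of 12860 SMAD4 peaks after BMP6 and 12 of 8577 in control cells, and 15 of 78050 and 15 of 67790 H3K27ac peaks, respectively. Gapdh was selected on its number of SMAD peaks in these same lists, so these counts are a description and no test was made of them. The question asked was whether the neighbouring genes account for the peaks, that is, to which start sites they lie closest.

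The series compared CUT&Tag (Cleavage Under Targets and Tagmentation, which cuts and tags DNA where an antibody is bound) in BMP6-stimulated and control MuSCs with antibodies against pSMAD1/5/9, SMAD4 and the histone mark H3K27ac. The cells came from female C57BL/6N(Tg(Pax7-EGFP)Tajb) mice aged 9 weeks, were sorted for the PAX7-GFP reporter and cultured, so that all groups carried the same transgene. How many animals went into each culture is not given in the sources used here. Before stimulation, all cultures were kept without serum for 6 h in 200 ng/mL of a soluble BMPR-1A-Fc receptor that captures BMPs. BMP6-stimulated cells then received 100 ng/mL BMP6 for 1 h, and control cells received the vehicle (4 mM HCl, 0.1% BSA). After a fixation of 2 min in 0.1% formaldehyde, 100000 cells were used per condition. Of the 14 libraries, 12 (2 biological replicates for each of 6 combinations of antibody and treatment) entered the lists, and 2 libraries without primary antibody have no peak list and were not analysed here. Each list is 1 consensus of 2 replicates, so the conditions could not be tested against each other across samples. The labelled cell type was checked with H3K27ac at start sites. All 8 MuSC and myoblast markers looked up (Pax7, Myf5, Myod1, Des, Cdh15, Itga7, Sdc4, Vcam1) had an H3K27ac peak within 2 kb of the transcription start site (TSS) in both conditions. Of markers of other cells, 0 of 4 endothelial genes had one, 2 of 6 leukocyte genes after BMP6 (Cd27, Lag3) and 1 in control cells (Cd27), 1 of 4 fibro-adipogenic genes in both conditions (Dpt), and 2 of 3 neuronal genes after BMP6 (Eno2, Tubb3) and 1 in control cells (Tubb3). Of all protein-coding genes, 55.1% after BMP6 and 53% in control cells had such a peak. The peak counted for Cd27 in control cells had its summit nearest to the TSS of the neighbouring gene Tapbpl.

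Gapdh encodes glyceraldehyde-3-phosphate dehydrogenase, an enzyme of glycolysis that is made at high levels in nearly all cells and therefore serves as a reference gene in expression assays. BMPs act through receptors that phosphorylate SMAD1, SMAD5 and SMAD9, which enter the nucleus with the shared partner SMAD4 and bind DNA, and in MuSCs this signal holds back myogenic differentiation. H3K27ac marks active promoters and enhancers, and a peak near a TSS does not by itself show which gene a bound factor acts on.

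Sequences of 7 sites between the Iffo1 and Gapdh promoters are shown first, strong and weak, because most SMAD peaks of the window lie in this interval. Each sequence comes from the 200 bp around the summit of a pSMAD1/5/9 peak listed after BMP6. It is the longest part free of annotated untranslated regions, read from the GRCm39 reference on the plus strand from 5′ to 3′. Those of ranks 207, 1990 and 559 lie beside the summit and do not include it. Capitals mark the BMP-responsive SMAD site (GGAGCC or GGCGCC), the SMAD palindrome (GTCTAGAC), the E-box of myogenic factors (CAGCTG) or the AP-1 site (TGACTCA), searched on both strands, and no motif of this set contains another. The order runs from the Iffo1 promoter to the Gapdh promoter.
Iffo1 promoter, chr6:125121904-125122103, peak rank 4088: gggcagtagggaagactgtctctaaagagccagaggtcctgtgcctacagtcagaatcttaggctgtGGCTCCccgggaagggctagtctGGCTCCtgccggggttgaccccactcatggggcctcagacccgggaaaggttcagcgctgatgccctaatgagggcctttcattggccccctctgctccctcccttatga
Iffo1 first intron, chr6:125124290-125124489, peak rank 316: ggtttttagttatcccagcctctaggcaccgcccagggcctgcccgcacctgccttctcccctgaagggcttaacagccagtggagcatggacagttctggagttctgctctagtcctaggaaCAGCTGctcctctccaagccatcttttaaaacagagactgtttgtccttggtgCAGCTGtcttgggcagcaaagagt
Iffo1 gene body, chr6:125126146-125126334, peak rank 58: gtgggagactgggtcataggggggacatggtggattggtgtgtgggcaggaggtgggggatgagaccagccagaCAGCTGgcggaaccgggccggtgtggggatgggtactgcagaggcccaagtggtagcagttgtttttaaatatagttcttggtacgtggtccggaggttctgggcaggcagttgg
Iffo1 gene body, chr6:125129735-125129797, peak rank 207: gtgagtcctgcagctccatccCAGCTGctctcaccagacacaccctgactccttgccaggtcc
Iffo1 intron, chr6:125134042-125134241, peak rank 30: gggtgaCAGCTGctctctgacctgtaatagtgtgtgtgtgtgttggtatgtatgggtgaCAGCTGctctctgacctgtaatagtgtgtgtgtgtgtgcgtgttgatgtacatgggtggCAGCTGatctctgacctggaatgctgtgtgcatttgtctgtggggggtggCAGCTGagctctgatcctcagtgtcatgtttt
Gapdh start site, upstream side, chr6:125142737-125142799, peak rank 1990: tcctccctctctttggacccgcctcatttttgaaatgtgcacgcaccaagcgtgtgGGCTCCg
Gapdh upstream peak, chr6:125143519-125143597, peak rank 559: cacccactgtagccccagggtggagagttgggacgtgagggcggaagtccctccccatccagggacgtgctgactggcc
For the peak that ranked highest after BMP6 (rank 27) and that of rank 4021, all 200 bp lay in annotated untranslated regions, so their sequences are not shown. The 200 bp of the first held a SMAD site and an AP-1 site but no E-box, and those of the second held 1 E-box. A weak Iffo1 intron peak beside that of rank 30 (chr6:125134582-125134830, rank 7074) is not printed either, and its 200 bp held no match.

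The 10 protein-coding TSSs in the window belonged, from left to right, to Lpar5 (a lysophosphatidic acid receptor), Chd4 (the remodelling ATPase of the NuRD complex), Nop2 (a nucleolar RNA methyltransferase), Iffo1 (an intermediate filament family protein of the nucleus), Gapdh, Ncapd2 (a condensin subunit), Mrpl51 (a protein of the mitochondrial ribosome), Vamp1 (a vesicle SNARE), Tapbpl (a factor of MHC class I peptide loading) and Cd27 (a TNF receptor family member of lymphocytes). Iffo1 and Gapdh point towards each other. The Iffo1 TSS lies 20582 bp from the Gapdh TSS, and the canonical Iffo1 transcript (chr6:125122154-125140691, plus strand) runs 1875 bp into Gapdh on the opposite strand. Of 17 basic Iffo1 transcripts in the annotation, 12 end inside Gapdh and 5 end before it. Gapdh has 9 basic transcripts, of which 5 start upstream of the canonical TSS, by up to 782 bp.

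**Figure D1:**
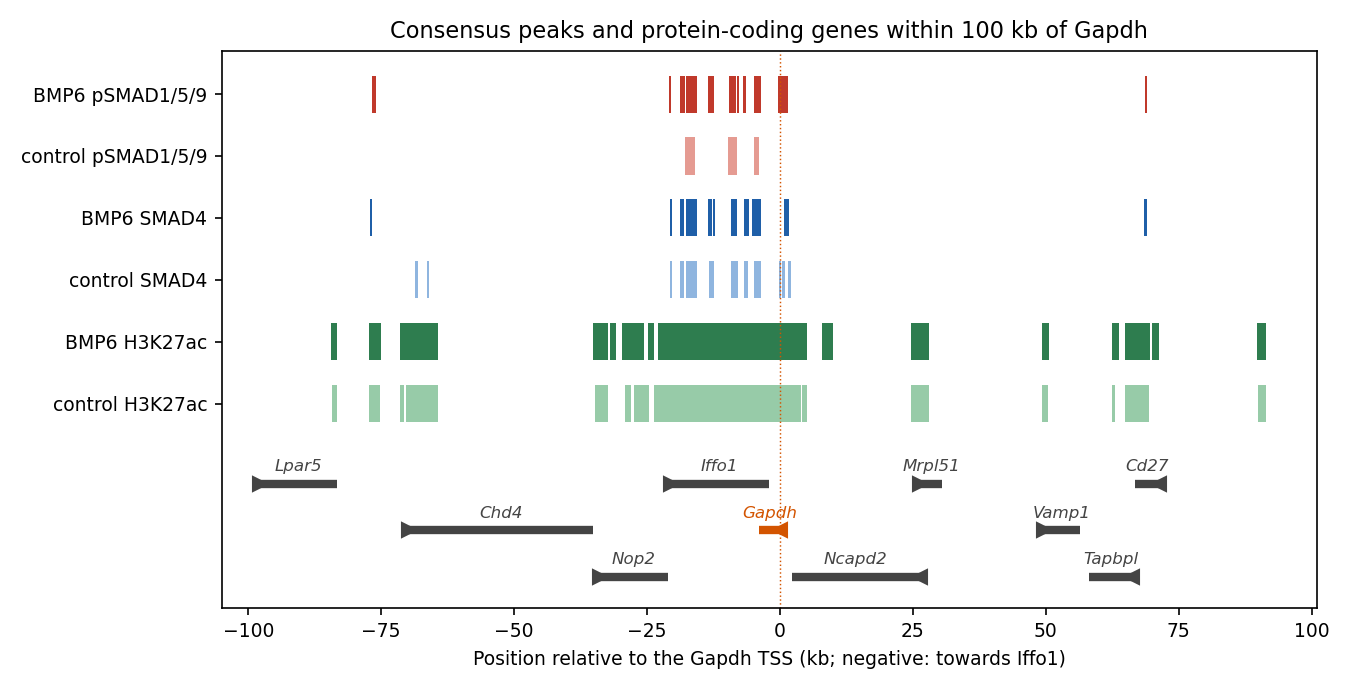
Consensus peaks of the 6 lists (coloured blocks, 1 row per list) and the 10 protein-coding genes (bars, triangles at the TSS pointing in the direction of transcription) against the position relative to the Gapdh TSS in kb. Most SMAD peaks sit between the start sites of Iffo1 and Gapdh (dotted line), while H3K27ac peaks are spread over the window.

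SMAD peaks were gathered in the interval between Iffo1 and Gapdh. Within 25 kb of the Gapdh TSS lay 10 of the 12 pSMAD1/5/9 peaks after BMP6, all 4 pSMAD1/5/9 peaks of control cells, 11 of 13 SMAD4 peaks after BMP6 and 10 of 12 in control cells. The remaining SMAD peaks were found left of and within Chd4 and in Cd27. At the border of the window, the first pSMAD1/5/9 peak beyond it after BMP6 was 52.6 kb further on the left and 375.3 kb further on the right, while the outermost peaks inside lay 76.8 kb and 68.9 kb from the Gapdh TSS.

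By the nearest start site, Gapdh was assigned more SMAD peaks than any neighbour except in the control pSMAD1/5/9 list, in which it tied with Iffo1. Of the 12 pSMAD1/5/9 peaks after BMP6, 6 were nearest to Gapdh, 4 to Iffo1, 1 to Chd4 and 1 to Cd27. Of the 4 in control cells, 2 were nearest to Gapdh and 2 to Iffo1. The 13 SMAD4 peaks after BMP6 were divided into 6 for Gapdh, 5 for Iffo1, 1 for Chd4 and 1 for Cd27, and the 12 of control cells into 6, 4, 2 and 0. No SMAD peak was nearest to Lpar5, Nop2, Ncapd2, Mrpl51, Vamp1 or Tapbpl. Over the 4 SMAD lists, Gapdh received 20 of 41 peaks (48.8%, Wilson 95% interval 34.3 to 63.5) and Iffo1 15 of 41 (36.6%, 23.6 to 51.9). These intervals cover counting error over peaks only, and peaks of different lists often mark the same site. For H3K27ac, 1 peak was nearest to Gapdh and 3 to Iffo1 in each condition, which follows from where the summits lay. A single wide H3K27ac peak over both start sites was counted for Iffo1, where its summit was, and the other Iffo1 peaks lay in the Nop2 body. The 1 peak counted for Gapdh lay in the Ncapd2 body, 9170 bp from the Gapdh TSS after BMP6 and 4607 bp in control cells.

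**Figure D2:**
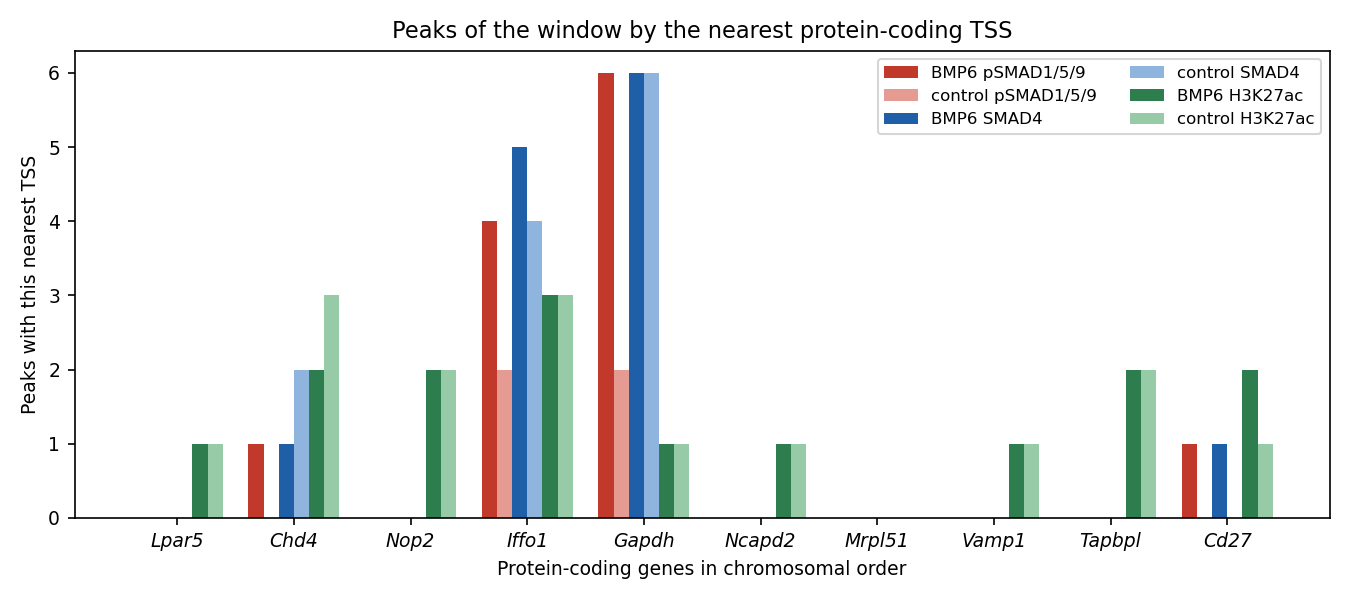
Number of peaks of the window (vertical axis) with each protein-coding TSS as the nearest, for the 6 lists (colours), with genes in chromosomal order. Gapdh and Iffo1 hold all but a few of the SMAD peaks, with 6 and 4 of the pSMAD1/5/9 peaks after BMP6, while H3K27ac peaks are shared out among 9 genes.

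The gene body gave another picture than the nearest TSS. The body of Iffo1 overlapped 28 of the 41 SMAD peaks (68.3%, 53 to 80.4), and that of Gapdh overlapped 6 (14.6%, 6.88 to 28.4). These intervals too cover counting error over peaks only, with the same site often counted in several lists. Of the 20 SMAD peaks nearest to the Gapdh TSS, 13 overlapped the body of Iffo1, and 9 of those did not touch Gapdh at all. Within 2 kb of the Gapdh TSS there were 2 pSMAD1/5/9 peaks after BMP6, 0 in control cells, 2 SMAD4 peaks after BMP6 and 3 in control cells. Among all protein-coding genes, 12% had a pSMAD1/5/9 peak within 2 kb of the TSS after BMP6, 1.74% in control cells, 17.8% a SMAD4 peak after BMP6 and 12.4% in control cells. The Iffo1 TSS had 2 peaks within 2 kb in each SMAD list but the control pSMAD1/5/9 list, which had none. The other 8 TSSs had no SMAD peak within 2 kb in the BMP6 lists, and in control cells the Chd4 TSS had 1 SMAD4 peak. Nop2, which ends just before Iffo1, and Ncapd2, which ends just beyond the Gapdh promoter, had no SMAD peak in their bodies in any list.

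**Figure D3:**
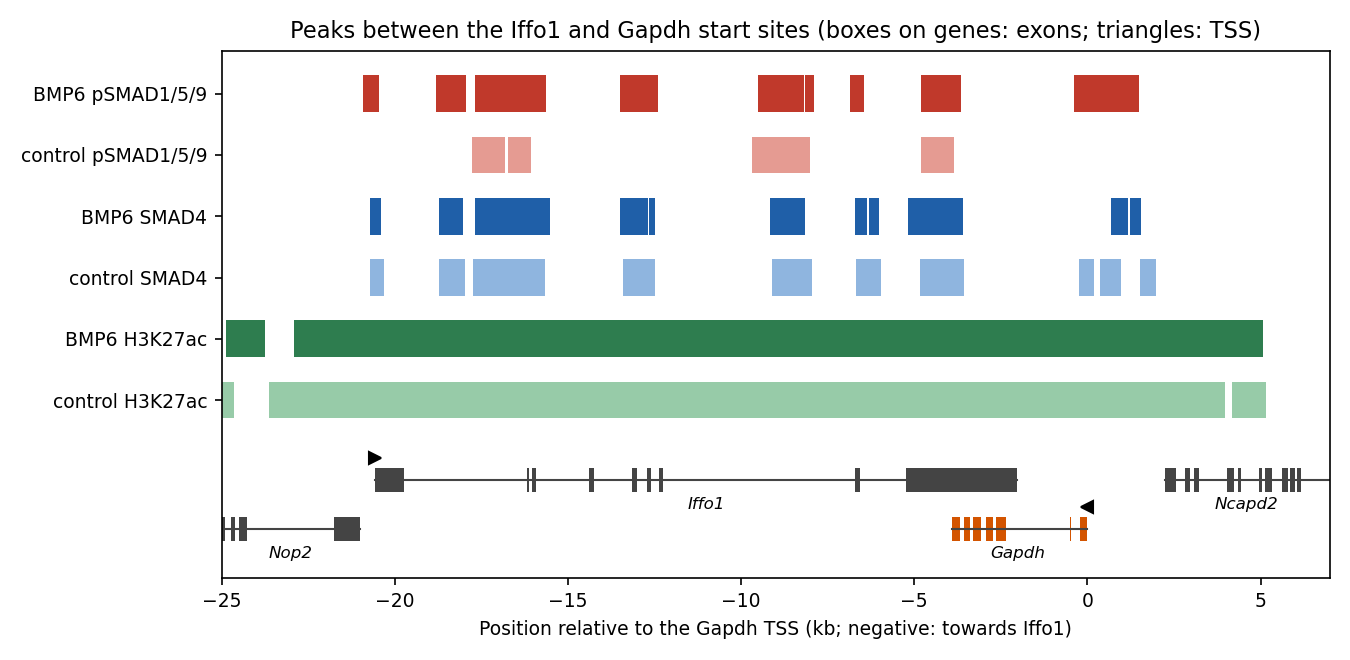
Enlarged view of the interval from the end of Nop2 to the end of Ncapd2, with the peaks of the 6 lists (blocks) above the canonical transcripts (boxes are exons, triangles mark the TSS) against the position relative to the Gapdh TSS in kb. A single H3K27ac peak of 28 kb after BMP6 and 27.6 kb in control cells spans both genes, and the pSMAD1/5/9 peaks at the Gapdh TSS, separated by 3 bp, appear after BMP6 and not in control cells.

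When overlapping SMAD peaks of the 4 lists were joined, the 41 peaks made up 14 sites. Of these, 11 had a pSMAD1/5/9 peak after BMP6, 3 had one in control cells, 10 had SMAD4 after BMP6 and 11 had SMAD4 in control cells. The 3 sites with pSMAD1/5/9 in control cells were those with peaks in all 4 lists. Of the 8 sites with pSMAD1/5/9 after BMP6 and not in control cells, 6 had a SMAD4 peak in control cells. SMAD4 was listed in both conditions at 8 sites, after BMP6 alone at 2 and in control cells alone at 3.

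The first of the 3 shared sites lay at chr6:125133041-125134830, in an intron of Iffo1, with its midpoint 8801 bp from the Gapdh TSS. In control cells its pSMAD1/5/9 peak (chr6:125133041-125134720) ranked 7 of 949 by signal, and ranked 6 and 9 by the 2 replicate columns. After BMP6 the peak at chr6:125133217-125134542 ranked 30 of 7339, with 49 and 39 by replicate. Its SMAD4 peak ranked 168 of 8577 in control cells and 570 of 12860 after BMP6. This was the highest rank of any pSMAD1/5/9 peak of the window in control cells, in each replicate column.

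The second shared site, chr6:125137552-125139168, covered the 3′ end of Gapdh and part of the last exon of the canonical Iffo1 transcript, 4376 bp from the Gapdh TSS. Its pSMAD1/5/9 peak after BMP6 (chr6:125137921-125139090) ranked 27 of 7339, the highest of the window by consensus, with 28 and 59 by replicate. By the second replicate column the intronic site, at 39, ranked above it. In control cells it ranked 79 of 949, with 80 and 74 by replicate. The SMAD4 peak ranked 245 after BMP6 and 255 in control cells.

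The other shared site, chr6:125124961-125127222, lay in the Iffo1 body, 3937 bp from the Iffo1 TSS. After BMP6 its pSMAD1/5/9 peak ranked 58, with 65 and 79 by replicate, and in control cells 2 peaks there ranked 98 and 350. In the SMAD4 lists it was the strongest site of the window, with rank 102 after BMP6 and rank 25 of 8577 in control cells.

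The Gapdh promoter itself ranked lower than these sites. The peak over the canonical TSS (chr6:125142343-125143080) ranked 1990 after BMP6, with 2914 and 1275 by replicate, and the next one upstream (chr6:125143084-125144214), which covers the 5 upstream starts, ranked 559, with 672 and 515 by replicate. No pSMAD1/5/9 peak was listed at either position in control cells. SMAD4 was listed over the canonical TSS in control cells (chr6:125142502-125142930, rank 3814) and not after BMP6, while the upstream position had SMAD4 in both conditions, with best ranks of 1438 in control cells and 3973 after BMP6. The Iffo1 promoter peak (chr6:125121829-125122290) ranked 4088 for pSMAD1/5/9 after BMP6 and was also not listed in control cells.

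Ranks of the window peaks were uneven. Of the 12 pSMAD1/5/9 peaks after BMP6, 6 were in the top 10% of their list, 5 in the top 5% and 3 in the top 1%, and the lowest stood at 96.4% of the list. For SMAD4, 4 of 13 peaks after BMP6 and 4 of 12 in control cells were in the top 5%, and 1 in each was in the top 1%. Signals of different lists are on no stated common scale, so only ranks within a list were compared. A better rank in the shorter control list therefore does not give a higher level of binding.

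**Figure D4:**
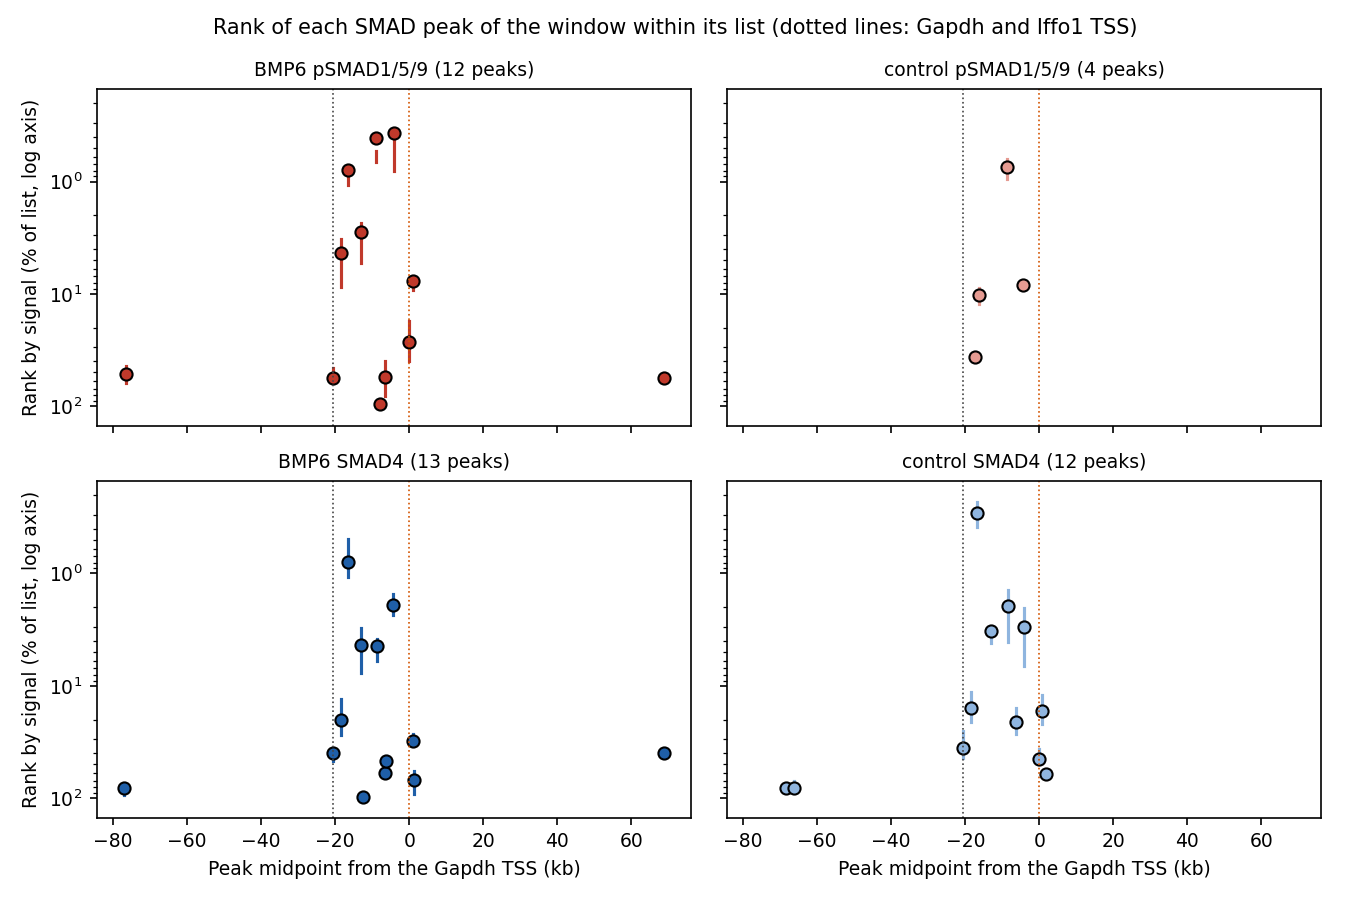
Rank by signal of each SMAD peak of the window as a percentage of its list (logarithmic vertical axis, strongest at the top) against the peak midpoint from the Gapdh TSS in kb, 1 panel per list. Points are the consensus signal, vertical lines join the ranks by the 2 replicate columns, which need not enclose the consensus rank, and dotted lines mark the Iffo1 and Gapdh TSSs. The peaks in the top 5% lie between these TSSs in each panel.

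Overlaps between the lists were counted beside the share over each whole list. Of the 12 pSMAD1/5/9 peaks after BMP6, 4 overlapped a pSMAD1/5/9 peak of control cells (33.3%, 13.8 to 60.9), and over the whole list this was 11.4%. With an overlap of 50% of both peaks this fell to 2 of 12, and to 8.72% over the whole list. In the reverse direction, all 4 control peaks overlapped one after BMP6, with 84.7% over the whole list. A SMAD4 peak after BMP6 overlapped 9 of the 12 pSMAD1/5/9 peaks, near the 73.2% of the whole list, and a control SMAD4 peak overlapped 10 of 12, against 57.2%. All 4 control pSMAD1/5/9 peaks overlapped a control SMAD4 peak (84% over the list), and 3 of 12 control SMAD4 peaks overlapped a control pSMAD1/5/9 peak (10.1%). Of the 13 SMAD4 peaks after BMP6, 11 overlapped a control SMAD4 peak (84.6%, 57.8 to 95.7), where the whole list gave 45.5%, and 11 overlapped pSMAD1/5/9 after BMP6, where it gave 42.7%. Of the 12 control SMAD4 peaks, 9 overlapped SMAD4 after BMP6 (69.7% over the list). All 41 SMAD peaks overlapped an H3K27ac peak of the same condition, as did 95.7% to 99.6% of the peaks of the whole lists (98.2% and 99.6% for pSMAD1/5/9 and 95.7% and 96.4% for SMAD4 after BMP6 and in control cells).

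The H3K27ac peak that spans Iffo1 and Gapdh was among the widest listed. After BMP6 it ran from 125119821 to 125147820 (28 kb), and in control cells from 125119101 to 125146700 (27.6 kb), where the median widths were 1470 bp and 1400 bp. Only 27 of 78050 peaks after BMP6 and 17 of 67790 in control cells, each count including this peak, were at least as wide. By signal it ranked 400 after BMP6, with 188 and 937 by replicate, and 135 in control cells, with 192 and 211. It began 2.33 kb to the left of the Iffo1 TSS after BMP6 and 3.05 kb in control cells, and ended 5.08 kb and 3.96 kb beyond the Gapdh TSS. It covered 13.7% of the window after BMP6 and held 10 of the 12 pSMAD1/5/9 and 11 of the 13 SMAD4 peaks. In control cells it held all 4 pSMAD1/5/9 and 10 of the 12 SMAD4 peaks. No other H3K27ac peak after BMP6 held as many pSMAD1/5/9 peaks (0.00128% of peaks, this one alone), and 6, this one included, held at least as many SMAD4 peaks (0.00769%). In control cells, again counting this one, 6 held at least as many pSMAD1/5/9 peaks (0.00885%) and 2 at least as many SMAD4 peaks (0.00295%). Gapdh was selected on its number of SMAD peaks, and most H3K27ac peaks are far narrower, so these shares are a description only. Among the 96 H3K27ac peaks of over 20 kb after BMP6, the median held 2 pSMAD1/5/9 and 3 SMAD4 peaks, and 13 held no pSMAD1/5/9 peak.

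H3K27ac was present at the start sites of nearly all neighbours. In each condition 9 of the 10 TSSs had a peak within 2 kb, the exception being Lpar5 (55.1% of all genes after BMP6 and 53% in control cells). Of the 15 H3K27ac peaks after BMP6, 12 overlapped one of the control cells (72% over the whole list), and all 15 control peaks overlapped one after BMP6 (86.8%). Nop2 had 5 H3K27ac peaks in its body in each condition and Ncapd2 had 3, although neither had a SMAD peak there. Cd27, a gene of lymphocytes, had H3K27ac within 2 kb of its TSS, with 2 peaks after BMP6 and 1 in control cells. The control peak and the wider peak after BMP6 had their summits nearest to the Tapbpl TSS and ended short of the Cd27 TSS. Only the other peak after BMP6 (chr6:125212781-125214040, rank 42281) covered the Cd27 TSS. The Cd27 body also held a pSMAD1/5/9 and a SMAD4 peak after BMP6, at chr6:125211373-125211645 (rank 4103) and chr6:125211307-125211867 (rank 5132), and none in control cells. The pan-leukocyte gene Ptprc had no H3K27ac peak at its TSS in either condition. Whether other cells contributed to these peaks was not tested.

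The strongest intronic site carried a repeated E-box. The 200 bp around its summit after BMP6 held 4 copies of CAGCTG, spaced by 53, 59 and 50 bases, and the segments with the first and second copies shared an identical run of 43 bases. The whole peak held 8 copies. In the list of pSMAD1/5/9 peaks after BMP6, 10 of 7339 peaks (0.136%) had at least 4 copies in this window. The site was picked for having the most copies among the printed sequences, so this share is a description only. The E-box is the sequence bound by MYOD1 and related myogenic factors, and a match describes the letters only.

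In the 200 bp around the summit, more window peaks of each SMAD list held an E-box than a SMAD site, while in whole control SMAD4 peaks the numbers were equal (8 of 12 each). After BMP6, 6 of the 12 pSMAD1/5/9 peaks had an E-box in the 200 bp around the summit (31.1% of the whole list) and 3 had a BMP-responsive SMAD site (30.2%). In control cells all 4 pSMAD1/5/9 peaks, from 3 sites, had an E-box (35.8%) and none had the SMAD site (29.3%). An E-box was found in 7 of the 13 SMAD4 peaks after BMP6 (29.1%) and 5 of 12 in control cells (32.7%), and the SMAD site in 3 of 13 (28.4%) and 4 of 12 (28.2%). The AP-1 site was found in 1 of 12 pSMAD1/5/9 peaks after BMP6 (15.5%), 0 of 4 in control cells (16.4%), 0 of 13 SMAD4 peaks after BMP6 (15.1%) and 2 of 12 in control cells (14.8%). The SMAD palindrome was found in none of the 41 summit windows, and whole-list shares were 0.518%, 0.527%, 1.26% and 1.15% in the same order. Of the printed sequences, those of the Iffo1 promoter and of the Gapdh start site held the SMAD site, with 2 matches and 1 match, and those of the Iffo1 body held E-boxes only. Among the peaks over Iffo1 not printed, that of rank 27, which also overlaps Gapdh, held a SMAD site and an AP-1 site. That of rank 4021 held 1 E-box, and that of rank 7074 held no match. The median GC content of the summit windows was 58.8% for pSMAD1/5/9 after BMP6, with a range of 47.5% to 64.5%, and 56% over the whole list.

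Among all 21757 protein-coding genes, few had as many SMAD peaks in the same kind of window. For pSMAD1/5/9 after BMP6, 87 genes had more than the 12 peaks of Gapdh and 36 others had the same number, so that 0.57% had at least as many, Gapdh included. The median gene had 1 and the highest count was 21. In control cells 28 genes had more than 4 peaks and 84 others had 4 (0.519% at least as many). For SMAD4, 292 genes had more than 13 peaks after BMP6 (1.8% at least as many) and 113 had more than 12 in control cells (0.731%). For H3K27ac, 35.9% of genes after BMP6 and 29.8% in control cells had at least the 15 peaks of Gapdh. By peaks nearest to the TSS, 0.506% of genes had at least the 6 pSMAD1/5/9 peaks of Gapdh after BMP6, 1.42% at least its 6 SMAD4 peaks, and in control cells 0.515% had at least its 2 pSMAD1/5/9 peaks and 0.772% its 6 SMAD4 peaks. For H3K27ac, 66.6% and 64.6% of genes had at least the 1 peak nearest to Gapdh, a count that leaves out the wide peak over the Gapdh TSS.

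The counts of the window do not single out Gapdh from its neighbours. Windows drawn in the same way around the other 9 genes, each the canonical transcript with 100 kb on both sides and so longer for longer genes, held 11 or 12 pSMAD1/5/9 peaks after BMP6, 4 in control cells, 12 or 13 SMAD4 peaks after BMP6 and 11 to 13 in control cells. Of the 36 other genes with 12 pSMAD1/5/9 peaks, 5 were these neighbours, and of the 84 with 4 in control cells, 9 were. The number of genes in the window was also compared. Among the 870 genes with 10 TSSs in their window, Gapdh included, 8 had at least 12 pSMAD1/5/9 peaks after BMP6, and their median was 1.

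**Figure D5:**
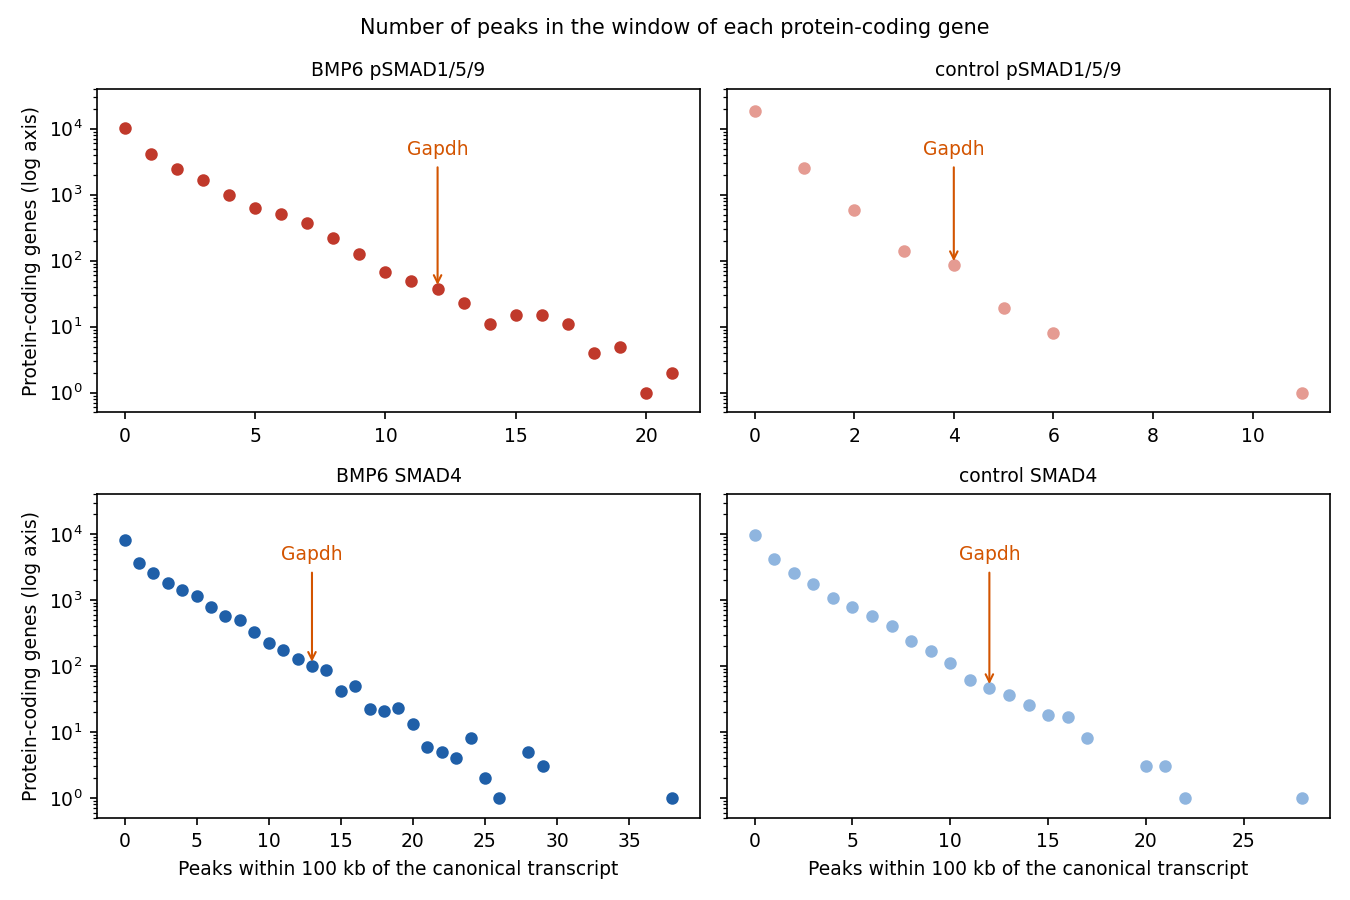
Number of protein-coding genes (points, logarithmic vertical axis) by the number of peaks in their window, 1 panel per SMAD list, with Gapdh marked by an arrow. Gapdh lies in the upper tail with 12 and 4 pSMAD1/5/9 and 13 and 12 SMAD4 peaks after BMP6 and in control cells, and genes with more peaks are present in each panel.

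Other genes of glycolysis had fewer SMAD peaks around them. Of 18 other glycolysis genes, none reached the count of Gapdh in any SMAD list, but Gapdh had been selected on these counts. Their median was 3 pSMAD1/5/9 and 3.5 SMAD4 peaks after BMP6, beside 1 and 1 over all genes, and 0 and 2.5 in control cells, beside 0 and 1. The most were found in the window of Eno2, an enolase gene, with 6 pSMAD1/5/9 and 10 SMAD4 peaks after BMP6. The fewest were found at the phosphofructokinase genes Pfkl, Pfkm and Pfkp, with 0 pSMAD1/5/9 peaks, and Pfkl also had 0 SMAD4 peaks. Tpi1, the triosephosphate isomerase gene, had 5 and 8. The windows of Eno2 and Tpi1 held 16 and 17 TSSs. In all 4 SMAD lists, 0 peaks were nearest to the TSS of either gene or within 2 kb of it. Eno2 and Tpi1 lie on chromosome 6 like Gapdh and share much of their window with each other, but their windows end 147.6 kb before that of Gapdh. At least 1 pSMAD1/5/9 peak lay in the window of 15 of the 18 after BMP6 (52.2% of all genes) and of 7 in control cells (15.5%), and at least 1 SMAD4 peak in that of 17 (63.1%) and 15 (55.8%). All 18 had H3K27ac in their window (85.9% and 85.3% of all genes). For H3K27ac, 12 of the 18 had at least as many peaks as Gapdh after BMP6 (35.9% of all genes). Within 2 kb of the TSS, 5 of the 18 had a pSMAD1/5/9 peak after BMP6 (12% of all genes) and 2 in control cells (1.74%).

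Reference genes of expression assays gave a similar range. Of 16 genes, none had as many pSMAD1/5/9 or SMAD4 peaks as Gapdh after BMP6, with medians of 3 and 4.5. The selection of Gapdh on its counts limits this comparison too. Actb, the gene of cytoplasmic actin, came closest with 9 pSMAD1/5/9 and 10 SMAD4 peaks after BMP6, and in control cells it had 4 and 12, the same numbers as Gapdh. Tubb5, a tubulin gene, also had 10 SMAD4 peaks after BMP6. Nearest to the TSS after BMP6 were 2 pSMAD1/5/9 and 4 SMAD4 peaks for Actb, and 0 and 1 for Tubb5. B2m, the light chain of MHC class I, and Sdha, a subunit of succinate dehydrogenase, had 1 pSMAD1/5/9 peak each. Of the 16, 9 had a pSMAD1/5/9 peak within 2 kb of the TSS after BMP6 (12% of all genes) and 3 in control cells (1.74%). RNA levels were not measured in these libraries, so whether the level of transcription moves with these counts was not tested. The study also ran RNA-seq on the same cells in parallel, which was not used here.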

How the data were processed

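Consensus peak lists of 12 CUT&Tag libraries were used (6 combinations of antibody and treatment, 2 biological replicates each). According to the study's methods, reads were subsampled to an equal total per antibody, aligned to GRCm39 with Bowtie2 2.5.4, filtered for high mapping quality with SAMtools 1.21 and converted with bedtools 2.31.1 (versions from the submitters' processing notes). Peaks were called per replicate with JAMM and combined by the irreproducible discovery rate (IDR) at 0.05. The deposited lists give a signal score for the consensus and for each replicate, and the −log10 of the IDR, as made by the authors. The consensus score equalled the sum of both replicate scores in 100% of peaks. Read counts are not part of the lists, and the depth under each peak is therefore unknown. Equal subsampling makes libraries of 1 antibody alike in reads, not in complexity.

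Peaks were intersected with the GENCODE annotation (21757 canonical protein-coding transcripts) in Python 3.11.15 with pandas 2.3.3, and each was assigned by its summit to the nearest TSS in the window. Peaks within 2 kb of a TSS were counted as TSS peaks. Shares carry Wilson 95% intervals, and motifs were counted in 200 bp around the summit, beside the same windows of the whole list. Counting code was tested on simulated intervals. Named genes were Gapdh, the genes with a TSS in the window and, in the lists of glycolysis and reference genes, those with the most and fewest SMAD peaks, plus Tpi1 and Eno2, and the values of 1 reference gene are not reported here. The gene, the lists and the motifs were chosen with earlier results of these data known. The 2 libraries made without primary antibody were not used here.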

Additional observations from a re-analysis of the deposited data

How the results depend on the processing

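Each list is a single consensus with replicate scores but no separate peak list per replicate, so the counts have no replicate error, and ranks within a list are the only measure of strength. Reads shared between Gapdh exons and its processed pseudogenes were removed by the authors only as far as the mapping quality filter reaches, and this was not tested. No paired analysis was possible because the replicate columns carry no replicate number and no result came from a test.

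The number of peaks in the window stayed within 1.5 times under every alternative run (IDR of at most 0.01, peaks within 500 bp merged, summit in the window). So did the SMAD peaks nearest to Gapdh under all 7 alternatives. For H3K27ac, 2 peaks in place of 1 were nearest to Gapdh by the midpoint in both conditions, and 2 after BMP6 with merging. The share of genes with fewer peaks than Gapdh, which was 99.4%, 99.5%, 98.2% and 99.3% for pSMAD1/5/9 and SMAD4 (each after BMP6, then in control cells) and 64.1% and 70.2% for H3K27ac, became 99.9%, 99.9%, 99.8%, 99.9%, 46.3% and 38.9% with 20 kb windows. It became 99.7%, 99.8%, 99.2%, 99.6%, 59.7% and 65.4% with 50 kb, and 99.8%, 99.9%, 99.1%, 99.7%, 71.9% and 73.4% with IDR of at most 0.01. With merging it was 98.9% and 98.9% for pSMAD1/5/9, 96.2% for SMAD4 after BMP6 and 62.1% for H3K27ac in control cells. By 1 replicate column at a time, the peak nearest to Gapdh with the best consensus rank stood at 28 and 59 for pSMAD1/5/9 after BMP6 and at 121 and 351 for control SMAD4. With an overlap of 50% of both peaks, the shares fell to 0% for SMAD peaks in H3K27ac (all 4 lists), since the H3K27ac peak is far wider, to 16.7% (from 33.3%) for pSMAD1/5/9 after BMP6 with control pSMAD1/5/9, to 50% for control pSMAD1/5/9 with either pSMAD1/5/9 after BMP6 or control SMAD4, to 53.8% and 46.2% for SMAD4 after BMP6 with pSMAD1/5/9 and with control SMAD4, and to 60% for control H3K27ac. In whole peaks, the SMAD site was found in 53.7% of the 41 SMAD peaks (24.4% in summit windows) and the E-box in 68.3% (53.7%), with longer stretches searched. Over whole peaks of the whole lists these shares were 50.7% to 65.3% and 49.9% to 63.4%. Of 115 values under alternatives, 77 kept within the limits set and 38 moved.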

Other observations

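The MuSC and myoblast markers varied widely in their pSMAD1/5/9 peaks. Of the 8, 2 had at least as many in their window after BMP6 as Gapdh (0.57% of all genes), namely Pax7 (21) and Myod1 (13), which were named after their values were seen, while Sdc4 had 3 and Myf5 and Vcam1 had 0. The median over the 8 was 6.5, beside 1 over all genes. Pax7, the transcription factor that marks MuSCs, had 38 SMAD4 peaks after BMP6 and 28 in control cells, and Myod1, a factor of myogenic commitment, had 19 and 13. In control cells Pax7 had 11 pSMAD1/5/9 peaks and Myod1 had 2, beside the 4 of Gapdh.

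Among the other marker lists, the median number of pSMAD1/5/9 peaks after BMP6 was 1 over 4 endothelial genes, 4.5 over 6 leukocyte genes, 0 over 4 fibro-adipogenic genes and 4 over 3 neuronal genes. The leukocyte value includes Cd27, which lies in the Gapdh window and had 11 peaks in its own. It also includes Cd4 (6) and Lag3 (7), which lie close together on chromosome 6. After BMP6, 0 pSMAD1/5/9 peaks were nearest to the TSS of Cd4 or Lag3.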
